A study of Mus musculus with 3 samples.

Results

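Microglia that carry the short isoform of human CD33, hCD33m, were set against microglia that carry the long isoform, hCD33M, in 2 single-cell RNA-seq libraries of mouse brain. Members were the barcodes with over 200 and under 8000 genes, at most 10% of UMIs (unique molecular identifiers, 1 per captured transcript) from mitochondrial genes, at least 0.15% of UMIs from P2ry12 and Tmem119 together, and fewer than 5 UMIs from the macrophage genes Mrc1, Pf4, Ms4a7 and F13a1. The rule kept 5307 hCD33m cells and 4791 hCD33M cells, together 10098 of the 10807 barcodes in these libraries and of the 14289 in the series. The hCD33m library was labelled female and the hCD33M library male, both at 8 weeks of age. Each mouse line carried the human cDNA behind a floxed stop in the Rosa26 locus on a C57BL/6 background, with the hCD33m line derived from 1 ES cell clone, and a Cre allele placed in Cx3cr1 opened the stop in cells of the microglial lineage. The third library, labelled Control, was labelled wild type and male at 8 weeks and gives only a level beside the others. All brains were perfused with transcription inhibitors, and cells positive for CD11b, CD45 and Cx3cr1 were sorted. There was 1 library in each group, so no test between genotypes was possible. Sex differed exactly as the isoform did, so isoform, sex and library cannot be told apart in anything reported here.

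CD33 is a sialic acid-binding receptor of the Siglec family that is carried by myeloid cells. The long isoform holds the outer V-set domain that binds sialylated glycans, and the short isoform, made when exon 2 is skipped, lacks it. Both isoforms keep the cytoplasmic ITIM, a motif through which receptors of this kind recruit phosphatases and dampen activating signals. Microglia are the resident macrophages of the brain. P2ry12 and Tmem119 mark them in their resting state, whereas immediate early genes such as Fos and Egr1 are switched on within minutes when such cells are stimulated and also when they are dissociated.

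Promoters are shown first for genes that stand at the centre of the comparison. They were taken from RefSeq (GRCm38.p6, the assembly of mm10) and run from 250 bases before to 50 bases after the annotated start, 5′ to 3′ on the strand of the gene. Capitals mark TGACG, the core of the cAMP response element, on either strand, and the E-box CACGTG. Dusp1, Btg2 and Rcan1 are shown because they carry the full 8-base element TGACGTCA, in which the TGACG of both strands overlap. Fos and Fosb are shown because they carry TGACG without the full element, and Ddit4 because it had the largest ratio of all and holds none of these letters.
Dusp1, chr17:26508423-26508722, minus strand: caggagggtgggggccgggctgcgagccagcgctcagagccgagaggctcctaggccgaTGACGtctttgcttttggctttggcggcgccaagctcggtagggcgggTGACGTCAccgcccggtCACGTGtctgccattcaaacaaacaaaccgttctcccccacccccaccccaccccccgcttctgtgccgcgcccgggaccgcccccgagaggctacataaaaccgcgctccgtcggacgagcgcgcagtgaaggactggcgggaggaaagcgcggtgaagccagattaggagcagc
Btg2, chr1:134079106-134079405, minus strand: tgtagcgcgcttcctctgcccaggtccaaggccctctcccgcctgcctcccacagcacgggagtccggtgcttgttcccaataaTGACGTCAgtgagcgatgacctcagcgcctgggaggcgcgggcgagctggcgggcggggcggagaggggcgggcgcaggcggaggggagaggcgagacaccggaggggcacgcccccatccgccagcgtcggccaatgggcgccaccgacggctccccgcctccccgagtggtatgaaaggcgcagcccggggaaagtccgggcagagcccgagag
Rcan1, second annotated start, chr16:92400029-92400328, minus strand: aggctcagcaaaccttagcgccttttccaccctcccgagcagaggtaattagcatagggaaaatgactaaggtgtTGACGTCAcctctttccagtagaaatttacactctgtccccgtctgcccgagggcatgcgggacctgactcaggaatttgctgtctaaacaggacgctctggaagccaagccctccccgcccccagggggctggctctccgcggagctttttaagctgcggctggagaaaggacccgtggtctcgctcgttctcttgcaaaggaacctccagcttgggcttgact
Fos, chr12:85473640-85473939, plus strand: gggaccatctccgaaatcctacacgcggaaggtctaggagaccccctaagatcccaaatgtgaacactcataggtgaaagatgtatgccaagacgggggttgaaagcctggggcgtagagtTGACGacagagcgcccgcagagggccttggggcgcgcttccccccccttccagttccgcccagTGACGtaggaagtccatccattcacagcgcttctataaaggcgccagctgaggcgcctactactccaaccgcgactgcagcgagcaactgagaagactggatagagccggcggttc
Fosb, chr7:19309996-19310295, minus strand: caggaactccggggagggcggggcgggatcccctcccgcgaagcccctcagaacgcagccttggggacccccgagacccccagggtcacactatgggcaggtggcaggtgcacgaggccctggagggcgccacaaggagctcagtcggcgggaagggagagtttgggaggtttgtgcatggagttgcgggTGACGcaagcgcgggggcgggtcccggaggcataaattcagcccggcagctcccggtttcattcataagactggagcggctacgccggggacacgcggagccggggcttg
Ddit4, chr10:59951721-59952020, minus strand: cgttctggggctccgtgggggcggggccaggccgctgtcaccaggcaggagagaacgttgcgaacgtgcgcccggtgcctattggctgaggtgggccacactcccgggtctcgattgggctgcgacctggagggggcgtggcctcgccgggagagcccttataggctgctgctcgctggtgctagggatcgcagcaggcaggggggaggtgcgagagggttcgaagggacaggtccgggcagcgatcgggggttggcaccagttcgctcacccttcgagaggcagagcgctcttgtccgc

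The levels compared are summed CPM, the UMIs of a gene over all microglia of a library per 1000000 UMIs of those cells. Ratios are log2 of hCD33m over hCD33M, with an exact 95% interval that covers counting error only and says nothing of how far animals of 1 genotype differ. The members held 29919957 UMIs in hCD33m and 26676577 in hCD33M, with medians of 5136 and 5084 UMIs and of 2264 and 2272 genes per cell. Microglia made up 94.6% and 94.9% of the cells that passed the filters, and the 8 fixed microglial markers that the rule did not use summed to 26676 and 25189 CPM. Markers of border-associated macrophages summed to 15.8 against 10.6 CPM over 8 genes, most of it from the 4 genes that the rule itself limits, and the 4 others summed to 1.70 against 1.24 CPM. Markers of red blood cells stood at 4.85 against 0.562 CPM over 5 genes. Of 5 T cell markers Cd3d alone was above 0, at 0.0668 CPM in hCD33m, and of 4 B cell markers Cd79b alone was, at 58.8 against 43.7 CPM. The immunoglobulin constant genes Ighm and Ighd were also counted, at 288 against 366 CPM and 15.01 against 23.5 CPM, the latter among the called lower genes with a log2 ratio of -0.65. Dendritic cell markers summed to 3.41 against 4.09 CPM over 5 genes. Of these Cd209a stood at 0.0668 against 1.39 CPM, while Flt3, at 0.568 against 0.337 CPM, and Zbtb46, at 2.51 against 2.06 CPM, went the other way. The part of RNA from macrophages, red blood cells, B cells or dendritic cells in the ratios was not tested. The human transgene was not analysed here, since the values are counts on mouse genes. At the mouse loci used, Cx3cr1, whose locus holds Cre, stood at 3172 CPM in hCD33m and 3372 CPM in hCD33M against 5717 CPM in Control. Mouse Cd33 stood at 443, 501 and 484 CPM in hCD33m, hCD33M and Control.

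Most genes differed little between hCD33m+ and hCD33M+ microglia, and those past 1.5-fold were few, with immediate early genes, Ddit4 and Apoe on the hCD33m side and Ildr2, Tnfsf13b and Lsp1 on the hCD33M side. Of 6555 autosomal genes that reached 20 CPM in hCD33m or in hCD33M, 29 (0.442%) stood 1.5-fold or more above hCD33M and 20 (0.305%) stood 1.5-fold or more below it, together 0.748%. A 2-fold limit was passed by 11 genes (0.168%) upward and 4 (0.061%) downward, together 0.229%. The median log2 ratio of all these genes was -0.02, with the quartiles at -0.09 and 0.06 and the middle 95% between -0.30 and 0.27. When mitochondrial, ribosomal protein and Malat1 UMIs were left out of the totals, which brought 6980 genes to the minimum, the counts were 31 higher and 33 lower. Among the called genes 18 reached 20 CPM in 1 library only.

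**Figure D1:**
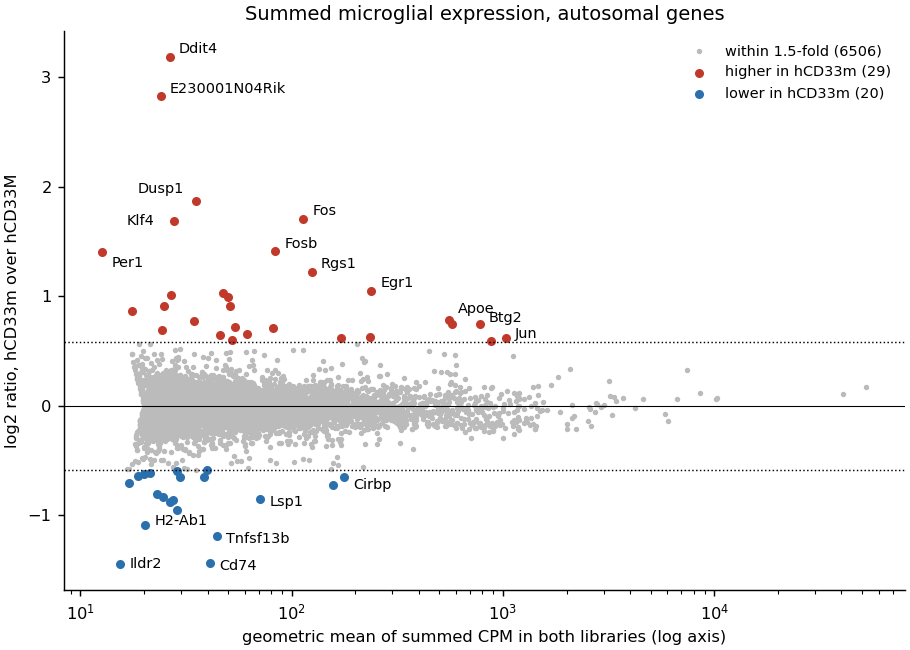
Each point is 1 of 6555 autosomal genes, with the geometric mean of its summed CPM in both libraries on the horizontal log axis and the log2 ratio of hCD33m over hCD33M on the vertical axis; dotted lines mark 1.5-fold. The 29 genes above the upper line include Ddit4 at 3.19, Fos at 1.71 and Jun at 0.62, and the 20 below the lower line include Ildr2 at -1.45 and Tnfsf13b at -1.19.

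Several immediate early transcription factors stood on the hCD33m side. Fos (chr12:85473890-85477273), the partner of Jun in the AP-1 complex, was counted at 205 CPM in hCD33m, 62.9 CPM in hCD33M and 85.2 CPM in Control, giving a log2 ratio between the isoforms of 1.71 (95% interval 1.63 to 1.79). The hCD33m library stood 3.26-fold above hCD33M, and Control lay between them. Fosb (chr7:19302696-19310051), a second AP-1 subunit, stood at 136 CPM in hCD33m, 51.3 CPM in hCD33M and 51.6 CPM in Control, with a log2 ratio of 1.41 (1.32 to 1.4996). For this gene hCD33M and Control were level and hCD33m stood alone. Jun, the shared partner of both, was at 1279, 834 and 966 CPM in the same order, a smaller log2 ratio of 0.62. The other AP-1 subunits of this class did not reach 1.5-fold: the log2 ratio was 0.37 for Jund and 0.29 for Junb, while Atf3 was at -0.27. Egr1, a zinc finger factor induced through MAP kinases, stood at 342, 165 and 232 CPM with a log2 ratio of 1.05.

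Members of the Krüppel-like family split. Klf4 (chr4:55527143-55532466), a regulator of inflammatory transcription in macrophages, stood at 49.6 CPM in hCD33m, 15.4 CPM in hCD33M and 19.5 CPM in Control, giving a log2 ratio of 1.68 (1.52 to 1.84). Klf2 (chr8:72319033-72321656), its close relative with a similar role, stood at 70.6, 35.6 and 32.8 CPM with a log2 ratio of 0.99 (0.88 to 1.10). Klf6 differed little, with a log2 ratio of 0.12, and the median of the 7 family members measured was 0.02. Klf12 was the lowest of them at -0.50.

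Single regulators of signalling and of mRNA decay were also among the higher genes. Most members of their lists were not, as for tested genes at large, of which 0.442% were 1.5-fold or more higher. Of all tested genes 44.8% had a ratio above 0. Dusp1 (chr17:26505590-26562128), the phosphatase that switches off p38 and JNK, stood at 67.1 CPM in hCD33m, 18.3 CPM in hCD33M and 22.9 CPM in Control, giving a log2 ratio of 1.87 (1.73 to 2.02). It was the only one of 8 MAP kinase feedback genes past 1.5-fold, and 7 of the 8 had ratios below 0, Dusp6 among them at -0.18. Rgs1 (chr1:144242296-144249242), which shortens signals from G protein-coupled receptors such as those for chemokines, stood at 190 CPM in hCD33m, 81.5 CPM in hCD33M and 98.0 CPM in Control, giving a log2 ratio of 1.22 (1.15 to 1.30). It was the only one of 5 G protein signalling regulators past 1.5-fold, with the list's median at -0.04 and Rgs3 at -0.40. Rcan1, an inhibitor of calcineurin, stood at 38.0, 18.8 and 21.1 CPM with a log2 ratio of 1.01. Zfp36l1 and Btg2, which drive the decay of mRNA, had log2 ratios of 0.75 each, at 740 against 441 CPM and 1011 against 601 CPM, and they were the only ones of 11 mRNA decay regulators past 1.5-fold, with a median of 0.03. The long noncoding gene Gm26669, at 0.72, lies within the span of Zfp36l1 on the other strand.

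In all, 10 of the 23 measured genes of the early response list passed 1.5-fold upward in hCD33m and 2 downward, beside 0.442% and 0.305% of all tested genes, and the list's median log2 ratio was 0.47 against -0.02 over all genes. Many of its members are genes that the study itself discussed, and the list was written with results of these libraries known, so its count gives no separate evidence of a direction. The lower 2 were Ier3, an early gene that protects against cell death, at 17.4 against 30.5 CPM with a log2 ratio of -0.81, and Myc, the growth-linked transcription factor, at 17.2 against 26.3 CPM with a log2 ratio of -0.62. Heat shock genes, which share some inducers with these genes, had no member of 10 past 1.5-fold in either direction and a median of 0.14.

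Ddit4 and the noncoding gene E230001N04Rik had the largest ratios of all autosomal genes. Ddit4 (chr10:59949669-59951834), also known as Redd1, an inhibitor of mTOR complex 1 that responds to glucocorticoids and to stress, stood at 79.9 CPM in hCD33m, 8.77 CPM in hCD33M and 9.22 CPM in Control. The log2 ratio was 3.19 (2.99 to 3.39), or 9.11-fold. E230001N04Rik (chr17:28522720-28525398) stood at 64.0, 9.03 and 12.1 CPM with a log2 ratio of 2.82 (2.63 to 3.02). For both genes hCD33M and Control were close to each other and far below hCD33m. E230001N04Rik begins 5193 bases from the span of Fkbp5, the glucocorticoid receptor co-chaperone, which lies on the other strand. Fkbp5 itself stood at 55.4 against 44.3 CPM, a log2 ratio of 0.32.

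Over the 12 measured autosomal genes on the list of glucocorticoid-induced genes, the median log2 ratio was 0.45. Of these genes 4 passed 1.5-fold upward in hCD33m and 0 downward, beside 0.442% and 0.305% of all tested genes. They were Ddit4, Dusp1, Per1 and Nfkbia, the inhibitor of NF-kB, which stood at 213 CPM in hCD33m, 138 CPM in hCD33M and 142 CPM in Control for a log2 ratio of 0.62. Dusp1 is on the early response list as well. This list too was chosen with earlier results of these data known, so its count gives no separate evidence of a direction. Just under the limit were Zfp36 at 0.56 and Sgk1, a kinase of this response, at 0.50. Mt1, a metallothionein, and Errfi1 went the other way at -0.12 and -0.16. Tsc22d3, which encodes the glucocorticoid-induced leucine zipper, lies on X and was set aside from the counts. It stood at 126 CPM in hCD33m, 33.4 CPM in hCD33M and 33.7 CPM in Control, giving a log2 ratio of 1.91 (1.81 to 2.02).

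The clock genes moved with no single direction. Per1 (chr11:69095217-69109960), a repressor in the clock that glucocorticoids and light also induce, stood at 20.7, 7.83 and 8.45 CPM in hCD33m, hCD33M and Control, a log2 ratio of 1.40 (1.17 to 1.63). Dbp, an output factor of the clock, stood at 31.0 against 19.2 CPM, a log2 ratio of 0.69. The related output factors differed, with Tef at 0.18 and Hlf at -0.47. Clock itself was at -0.05, and the median of the 10 genes measured was 0.03.

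**Figure D2:**
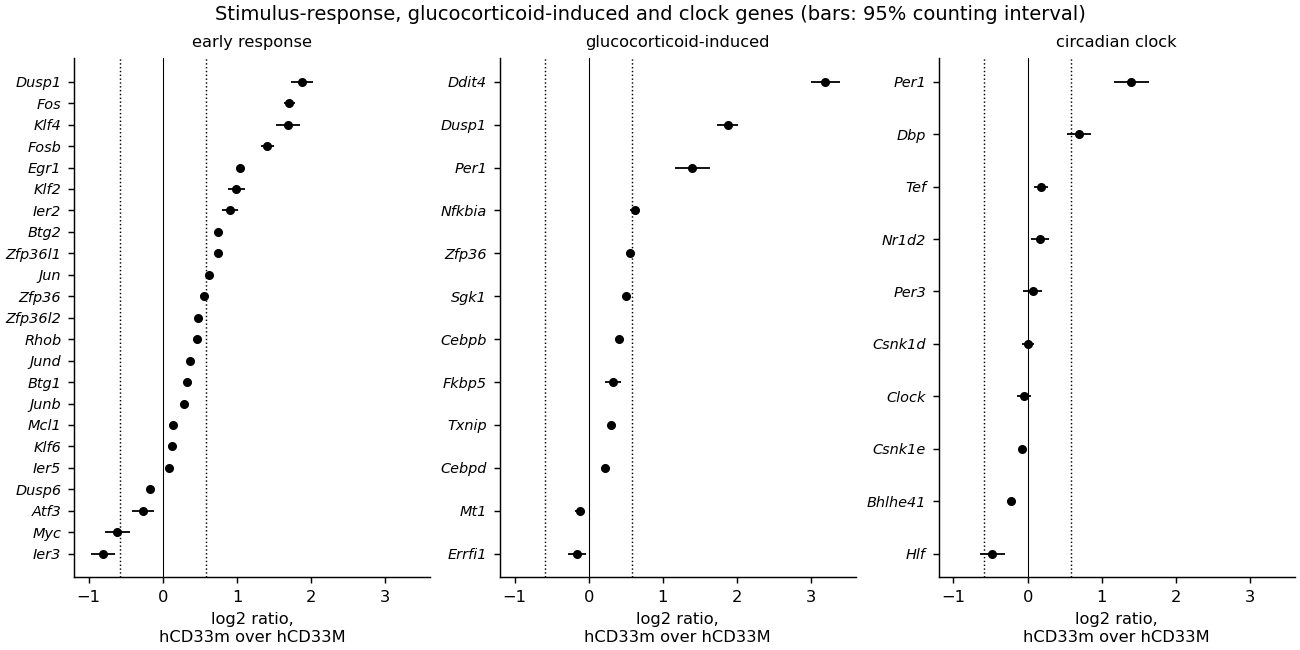
Log2 ratios of hCD33m over hCD33M are plotted for each measured autosomal member of 3 lists, with bars for the 95% counting interval (no replicate error is available) and dotted lines at 1.5-fold; Dusp1 and Per1 are on more than 1 list. Of the early response genes 10 lie past the upper line, from Jun at 0.62 to Dusp1 at 1.87, Ddit4 stands at 3.19 among the glucocorticoid-induced genes, and clock genes spread from Hlf at -0.47 to Per1 at 1.40.

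Other genes higher in hCD33m came from several classes. Apoe (chr7:19696109-19699188), the main lipid carrier of the brain, stood at 729 CPM in hCD33m, 424 CPM in hCD33M and 484 CPM in Control, giving a log2 ratio of 0.78 (0.75 to 0.82). At equal depth of 2000 UMIs per cell it was found in 39.6% of hCD33m and 21.0% of hCD33M cells. The filtered cells outside the microglial class held 20741 CPM of Apoe in hCD33m and 19549 CPM in hCD33M, and over all filtered cells the log2 ratio was 0.49. In each library a few cells held much of this transcript: the top 1% of cells by Apoe held 22.6% of its UMIs in hCD33m and 46.7% in hCD33M. These top cells were ranked by UMI count. With cells ranked by the share of their UMIs from Apoe and the top 1% left out, its log2 ratio was 1.31 (1.26 to 1.35). The histone genes Hist1h2ac, Hist1h2bc and Hist3h2a had log2 ratios of 1.03, 0.60 and 0.65. Adrb1, the beta1 adrenergic receptor, stood at 105 against 64.2 CPM and had a ratio of 0.71. Eps8l1 stood at 23.7, 12.97 and 4.15 CPM, and here both transgenic libraries were above Control; in cells with 2000 to 4000 UMIs its log2 ratio was -0.033.

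**Figure D3:**
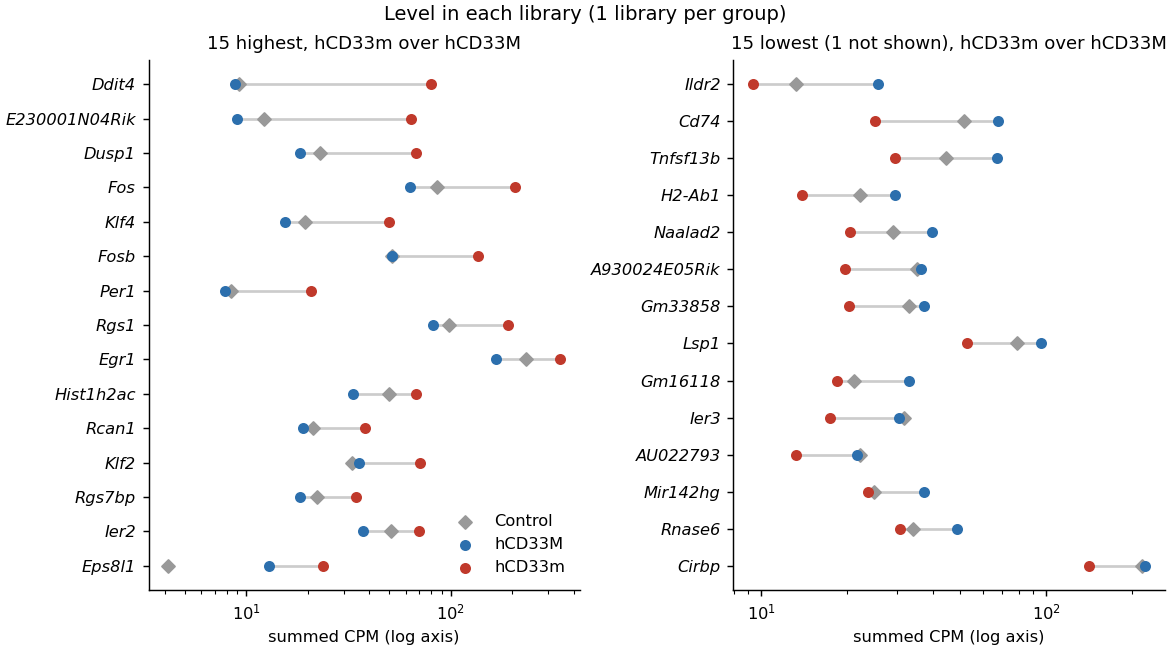
Summed CPM on a log axis in each of the 3 libraries for the 15 genes with the highest (left) and the 15 with the lowest (right, 1 gene not shown) log2 ratio of hCD33m over hCD33M; grey lines join the hCD33 libraries, and 1 library per group allows no error bar. Control (grey diamonds) lies beside hCD33M for Ddit4, Fosb and Per1 and beside hCD33m for Mir142hg.

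Control levels placed most of these differences on the hCD33m side. Over the 29 higher genes the Control level, on the log scale, was nearer to hCD33M for 25 and nearer to hCD33m for 4, which were Hist1h2ac, Ier2, Dbp and Hist1h2bc. hCD33m was at least 1.5-fold above Control for 18 of the 29, and hCD33M was at least 1.5-fold below Control for 0. Over the 20 lower genes Control was nearer to hCD33M for 15 and nearer to hCD33m for 5. hCD33m was at least 1.5-fold below Control for 11 of the 20, and hCD33M was at least 1.5-fold above Control for 4. Control shares its male sex with hCD33M, and the members were chosen on the ratio between the other libraries, so these counts are a description only. Control also stood apart from both in Cx3cr1, at 5717 CPM against 3172 CPM in hCD33m and 3372 CPM in hCD33M. Its label gives wild type and does not say whether it carries the Cre allele.

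For Fos and Ddit4, hCD33m had both more cells with a UMI and more UMIs in such cells. With every cell thinned to 2000 UMIs (4871 hCD33m and 4517 hCD33M cells, with 436 and 274 shallower cells left out), a Fos UMI was found in 22.7% (Clopper-Pearson 95% interval 21.6 to 23.95) of hCD33m cells and 9.50% (8.66 to 10.4) of hCD33M cells. Without thinning the shares were 37.6% and 19.4%. A cell with Fos held 1.74 Fos UMIs on average in hCD33m and 1.29 in hCD33M. Ddit4 was found in 13.6% (12.7 to 14.6) against 1.68% (1.33 to 2.10) of thinned cells, or 28.8% against 4.49% unthinned, with 1.16 against 1.03 UMIs per positive cell. At counts this low, a rise within every cell would also appear as more cells with a UMI. These shares therefore cannot tell such a rise from a larger number of expressing cells. Free RNA can place a UMI in a cell that does not express the gene, and no class of cells known to lack these genes was at hand to measure it. In the filtered cells outside the microglial class, which had medians of 5167 and 4860 UMIs, Ddit4 was found at 2000 UMIs in 13.4% of 217 hCD33m cells and 3.06% of 196 hCD33M cells, and Fos in 26.3% and 17.3%. The part of free RNA in the shares was not tested.

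Of the 15 highest genes 13 were past 1.5-fold in each of 4 depth bins. In cells with 2000 to 4000 UMIs, 4000 to 6000, 6000 to 10000 and over 10000, the log2 ratio of Fos was 1.39, 1.60, 2.01 and 1.73. That of Ddit4 was 2.67, 3.47, 2.87 and 3.35 in the same bins. The exceptions were Ier2, at 0.43, and Eps8l1, at -0.033, both in cells with 2000 to 4000 UMIs. Of the 15 lowest genes 7 were past the limit in every bin.

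Within the hCD33m library, the higher genes differed in how far they shared cells with Fos. Of the 1108 thinned hCD33m cells with a Fos UMI, 32.3% (29.6 to 35.2) also had Fosb, against 13.9% (12.8 to 15.1) of the 3763 cells without Fos. Egr1 was found in 53.1% against 30.7%, Dusp1 in 20.1% against 8.00%, Klf4 in 14.1% against 4.94%, and Ier2, an early gene of unsettled function, in 19.0% against 8.98%. These genes were more often found in the cells that held Fos, at the same depth. Other genes lay between, with Klf2 in 14.5% against 8.37% and Rgs1 in 30.1% against 23.4%. For Rcan1, at 8.48% (6.91 to 10.3) against 6.88% (6.09 to 7.74), the intervals overlapped. So did those of Hist1h2ac, at 11.5% (9.65 to 13.5) against 9.83% (8.90 to 10.8). For Ddit4 the shares were close, with 13.99% (11.999 to 16.2) against 13.5% (12.4 to 14.7), as they were for E230001N04Rik, with 11.6% against 11.5%, and for Per1, with 4.15% against 3.93%. Ddit4 and E230001N04Rik were found together no more often than apart, with E230001N04Rik in 11.4% of 664 cells with Ddit4 and 11.5% of 4207 without. Tsc22d3 was found in 18.7% of cells with Ddit4 and 20.8% of those without. P2ry12 was found in 99.6% and 99.2% of cells with and without Fos. Cells of 1 library are not replicates, and these intervals cover counting error within the library.

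In the hCD33M library several genes were also more often found in cells with Fos, among them Fosb, Egr1, Dusp1, Rgs1 and Hist1h2ac. Fosb was found in 14.2% (11.1 to 17.9) of 429 cells with Fos and 7.83% (7.02 to 8.69) of 4088 without. Egr1 was found in 35.7% against 18.2%, and Dusp1 in 6.29% (4.19 to 9.03) against 3.45% (2.91 to 4.06). Rgs1 was found in 18.6% (15.1 to 22.7) against 12.2% (11.2 to 13.2), and Hist1h2ac in 8.16% (5.75 to 11.2) against 4.55% (3.93 to 5.23). For Klf4, at 3.73% (2.15 to 5.99) against 2.35% (1.91 to 2.86), the intervals overlapped. So did those of Ier2, at 9.09% (6.54 to 12.2) against 6.38% (5.65 to 7.18). Cells with Fos were fewer here, at 429 against 1108 in hCD33m, which widens the intervals. In Control, Klf4 was found in 7.52% (5.01 to 10.8) of cells with Fos and 2.58% (2.01 to 3.25) of those without. In cells without a Fos UMI, Fosb was still higher in hCD33m than in hCD33M, at 13.9% against 7.83%. So was Egr1, at 30.7% against 18.2%.

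**Figure D4:**
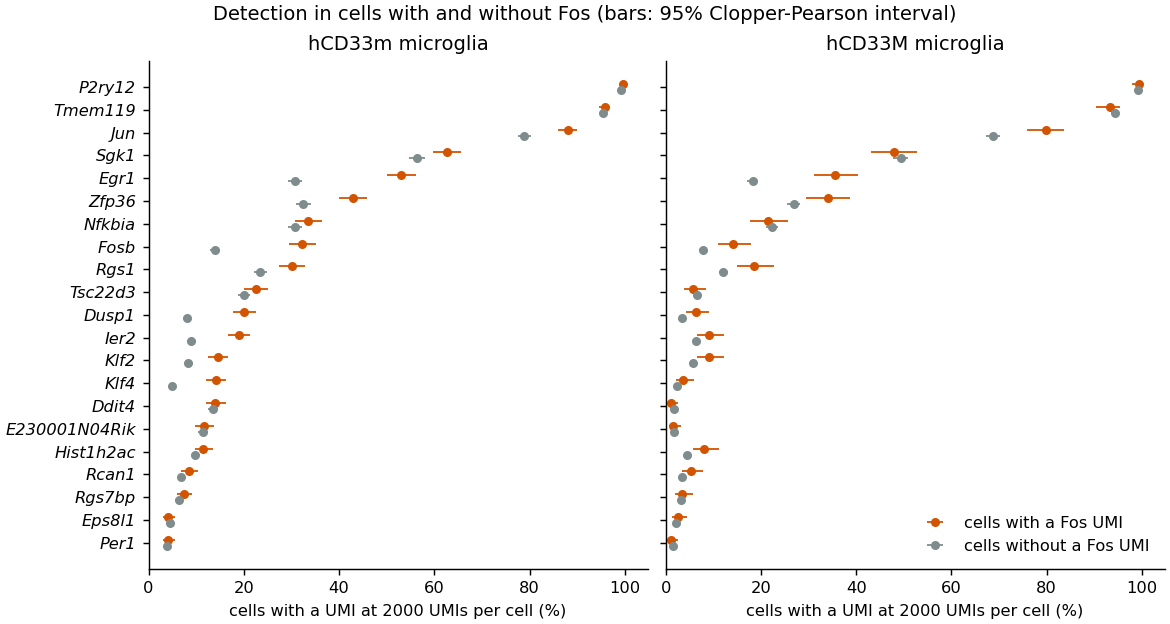
The share of cells (%) with a UMI of each gene at 2000 UMIs per cell is plotted in cells with (orange) and without (grey) a Fos UMI, in hCD33m (left) and hCD33M (right), with 95% Clopper-Pearson intervals for counting error. Fosb, Egr1, Dusp1 and Klf4 separate by Fos in hCD33m, whereas Ddit4 (13.99% and 13.5%) and E230001N04Rik (11.6% and 11.5%) do not.

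Counted per cell, the change was spread over many microglia. Of the 15 genes with the highest ratios, a thinned hCD33m cell held 1.98 on average, a hCD33M cell 0.885 and a Control cell 1.06. The share of cells with none of the 15 was 17.3% in hCD33m and 43.7% in hCD33M, and the share with 5 or more was 7.49% and 0.354%. Of the 15 genes with the lowest ratios, 3 or more were found in 7.02% of hCD33m and 19.9% of hCD33M cells. These genes were chosen on the ratio itself, so the shares describe how it was distributed and are no separate evidence of it.

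**Figure D5:**
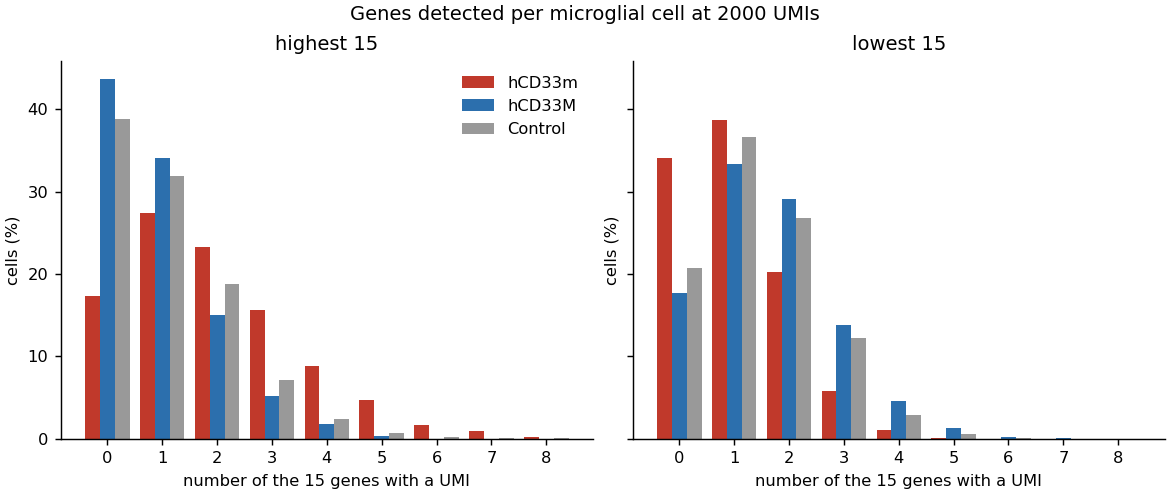
Bars give the share of microglia (%) in each library by the number of genes with a UMI at 2000 UMIs per cell, among the 15 highest (left) and 15 lowest (right) genes. For the highest 15, 17.3% of hCD33m cells and 43.7% of hCD33M cells held none.

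Lower genes in hCD33m belonged to fewer recognisable groups. Ildr2 (chr1:166254139-166316823), an immunoglobulin-like membrane protein, stood at 9.36 CPM in hCD33m, 25.6 CPM in hCD33M and 13.2 CPM in Control, giving a log2 ratio of -1.45 (-1.66 to -1.25). Tnfsf13b (chr8:10006467-10039072), the B cell survival cytokine BAFF, stood at 29.4, 67.1 and 44.5 CPM with a log2 ratio of -1.19 (-1.31 to -1.07). It was found in 6.06% (5.40 to 6.76) of thinned hCD33m cells and 12.97% (12.006 to 13.99) of hCD33M cells. On the log scale hCD33M was farther from Control than hCD33m was for Ildr2, while for Tnfsf13b Control lay about midway. Lsp1 (chr7:142460809-142494867), an actin-binding protein of leukocytes, stood at 52.8 CPM in hCD33m, 95.6 CPM in hCD33M and 79.1 CPM in Control, giving a log2 ratio of -0.86. Cirbp, the cold-inducible RNA-binding protein, stood at 142, 222 and 218 CPM with a log2 ratio of -0.65 (-0.71 to -0.59), and here hCD33M and Control were level. Rnase6, an antimicrobial ribonuclease, and Alox5, which starts leukotriene synthesis, had log2 ratios of -0.66 and -0.62. Mir142hg, the host gene of a haematopoietic microRNA, was at -0.66 and stood at 23.7, 37.4 and 24.8 CPM.

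Several of the lower genes were noncoding transcripts that overlap other genes. Gm33858, at 20.3 against 37.1 CPM and a log2 ratio of -0.87, overlaps Cx3cr1 on the other strand, and Control stood at 33.0 CPM. A930024E05Rik, at -0.88, overlaps Kdm2b in the same way, and Kdm2b was at -0.12. Gm16118, at -0.83, lies within Wwox, whose ratio was -0.06.

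The lower values of MHC class II genes rested on a few cells. Cd74 (chr18:60803848-60812652), the invariant chain of MHC class II, stood at 24.97 CPM in hCD33m, 67.7 CPM in hCD33M and 51.5 CPM in Control, giving a log2 ratio of -1.44 (-1.56 to -1.31). H2-Ab1 (chr17:34257689-34269419), a class II beta chain, stood at 13.9, 29.5 and 22.2 CPM with a log2 ratio of -1.09 (-1.26 to -0.91). Cells with Cd74 were about as frequent in both, at 3.70% (3.18 to 4.26) and 4.36% (3.78 to 4.998) of thinned cells, or 8.78% and 10.1% unthinned. The top 1% of cells by Cd74 held 35.5% of its UMIs in hCD33m and 69.0% in hCD33M, with up to 24 and up to 289 UMIs in 1 cell. Whether those cells were microglia or another cell type was not tested. The top 1% above were ranked by UMI count. With cells ranked by the share of their UMIs from Cd74 and the top 1% left out, its log2 ratio was -0.36 (-0.53 to -0.19). The same cut made by the share from H2-Ab1 gave a log2 ratio for H2-Ab1 of -0.19 (-0.42 to 0.04). Over all filtered cells, macrophages included, the ratios were -0.29 and -0.20, and outside the microglial class Cd74 stood at 3110 CPM in hCD33m and 4048 CPM in hCD33M.

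Transcripts of the translation machinery were lower by small amounts and together. Of 76 ribosomal protein genes, 74 had ratios below 0, with a median of -0.17 and 0 past 1.5-fold. Of 27 translation factors 24 were below 0, with a median of -0.10, and Tpt1 was the lowest at -0.22. All 13 mitochondrially encoded genes were below 0, with a median of -0.23. The share of all microglial UMIs from ribosomal protein genes was 6.50% in hCD33m, 7.24% in hCD33M and 7.53% in Control, and from mitochondrial genes it was 1.97%, 2.28% and 1.97%. Nuclear-encoded respiratory chain genes were centred at -0.01 over 73 genes and proteasome genes at 0.01 over 36. Over all tested genes 44.8% had a ratio above 0.

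Gene groups tied to microglial identity and to what CD33 acts on follow, beside the 0.748% of all tested genes that passed 1.5-fold in either direction; a count of 0 in lists of this size is near that share. None of 24 homeostatic genes was past 1.5-fold, with a median of 0.06. The widest were Rhob at 0.45, Fcrls at 0.34 and Sall1, a factor that sets microglial identity, at -0.15. The paper does not treat Rhob as an identity gene: it reports Rhob, beside Fos, Jun and Klf2, as higher in hCD33m microglia. None of 29 phagocytosis genes was past the limit, from the scavenger receptor Stab1 at 0.27 to Scarb1 at -0.28. None of 20 genes for Siglecs and ITIM signalling was, with the phosphatase gene Inpp5d at 0.12, the inhibitory receptor gene Lair1 at -0.23 and Siglecf at -0.34. The 40 lysosomal genes had a median of 0.04, with the protease gene Ctsd at 0.33. Of 13 genes of the disease-associated microglial state only Apoe was past the limit, and Cst7, a cystatin of that state, stood at 22.6 against 33.3 CPM and -0.56. Of 24 genes near Alzheimer risk loci again only Apoe was.

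Signalling and immune groups are read against the same share. Of 15 genes of Toll-like receptor signalling 0 were past 1.5-fold, from Tlr4 at 0.18 to Cd180, a regulator of Tlr4, at -0.56 (179 against 265 CPM, with Control at 286 CPM). Of 14 interferon response genes 0 were, with Slfn2 at 0.32 and Ifi204 at -0.51. The 13 MHC class I genes had a median of -0.03. Among 6 chemokines Ccl9 was at 0.41, Ccl4 at 0.00 and Ccl12 at -0.53. Of the 6, 0 were past the limit and 4 were below 0, with a median of -0.18. The value of Ccl4 rested on few cells: the top 1% by its UMIs held 82.0% of them in hCD33m and 79.1% in hCD33M. Without the top 1% of cells by the share of their UMIs from Ccl4, its log2 ratio was -0.16 (-0.39 to 0.07).

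The promoters shown above can be set beside these values. Of the 49 called genes 31 had a promoter in the RefSeq table, 21 of them higher and 10 lower. TGACGTCA was found in 3 of the 21 higher genes (Dusp1, Btg2 and Rcan1) and in 0 of the 10 lower genes, against 3.97% of 5217 tested genes with a promoter and 1.79% of all 32851 promoters. TGACG on either strand was found in 13 of the 21 and 3 of the 10, against 39.1% of tested genes and 20.8% of all promoters. CACGTG was found in 4 of the 21 (Dusp1, Klf4, Per1 and Rcan1) and in 1 of the 10 (Ildr2), against 13.1% and 7.15%. The palindromic glucocorticoid response element was found in none of these 300-base windows, against 0.268% of tested genes, and the CArG box in none, against 1.51%. A match of letters is not a binding site, and a window without a match says nothing of sequence outside it.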

How the data were processed

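Single-cell 3′ libraries were made on the 10x platform. The authors deposited whole-number UMI counts per gene and cell, made with Cell Ranger on mm10 and filtered with Seurat to cells with over 200 genes and genes in at least 3 cells. Starting from these counts, cells were chosen by the marker rule given above and UMIs were summed per library. No doublet caller was run beyond the limit of 8000 genes. With 1 library per group no test was made: ratios carry exact conditional binomial 95% intervals and shares carry Clopper-Pearson intervals, for counting error only. A summed count of 0 was set to 3 counts in a ratio. Barcodes numbered 5707 in hCD33m, 5100 in hCD33M and 3482 in Control, and 10 were shared between the hCD33 libraries. Near the marker limit, 69 and 74 filtered hCD33m and hCD33M cells lay just outside and 115 and 126 just inside. Genes on X and Y were set aside, with chromosomes from GENCODE for 15172 of 15338 genes and from RefSeq for 83. The genes named are the 15 highest and 15 lowest ratios, all members of the early response, glucocorticoid-induced, clock and targeted loci lists, and for other lists the members past 1.5-fold or else the 2 highest and 2 lowest; further genes were named after their values were seen. Members and lists were chosen with earlier results of these data known. Alternatives changed scaling, cell weights, thinning, cell filters and the CPM minimum. A few genes and 1 list are not reported here. Ratios were tested on simulated data. Python 3.11.15, numpy 2.4.6, scipy 1.17.1, edgeR 4.0.16 (scaling factors) and DESeq2 1.42.0 (size factors) were used.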

Additional observations from a re-analysis of the deposited data

Results flagged for a closer look

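The sex-linked genes stood outside the comparison because hCD33m was labelled female and hCD33M and Control male, and those past 1.5-fold between the isoforms whose level also exceeded Control by 1.5-fold are listed here. Against Control, the log2 ratio in hCD33m was 13.04 for Xist, the RNA that silences 1 X chromosome in females, and 8.15 for Tsix, its antisense partner. It was 1.90 for Tsc22d3, 1.07 for Gpr165 and 0.98 for Kdm6a, a histone demethylase that escapes X silencing. Among the male libraries, hCD33M stood above Control by 2.00 on the log2 scale for Gm47283, 1.14 for Mid1 and 0.85 for the Y-linked demethylase Uty. Gm47283 was counted at 28.7 CPM in hCD33m, 138 CPM in hCD33M and 34.4 CPM in Control, and Mid1 at 26.8, 77.2 and 35.0 CPM. The Y-linked genes Ddx3y, Eif2s3y, Kdm5d and Uty had 0 UMIs in hCD33m microglia.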

How the results depend on the processing

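Of the 49 autosomal genes past 1.5-fold, 36 stayed past it under all 12 alternatives for scaling, weighting and cells planned for each gene, and the early response median lay between 0.45 and 0.49 throughout. The CPM minimum moved the counts most: with at least 5 CPM 60 genes were higher and 92 lower, with at least 50 CPM 22 were higher and 5 lower, and with no minimum 840 were higher and 1035 lower, as more or fewer genes were counted. With totals that left out mitochondrial, ribosomal protein and Malat1 UMIs, 33 genes were lower. Other settings gave 27 to 34 higher and 18 to 24 lower. In cells of 2000 to 4000 UMIs, bins chosen after seeing the data, the ratio turned for Eps8l1 (-0.033) and H2-Ab1 (0.31); the cause was not tested. The difference in detection, hCD33m minus hCD33M, turned in sign for Ier3 with at least 2 UMIs (0.0721 percentage points), and for H2-Ab1 when cells were thinned to 1000 UMIs (-0.569), to 4000 UMIs (-0.648) and with at least 2 UMIs (-0.0555). At the main setting of 2000 UMIs, H2-Ab1 was found in 2.69% of hCD33m and 2.41% of hCD33M cells. That is opposite to the direction of its summed CPM, which the turned values share. Without cells holding a UMI of Cd74, H2-Aa, H2-Ab1 or H2-Eb1, also chosen after seeing the data, 31 genes were higher and 20 lower. No paired analysis was possible because each group had 1 library.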

Other observations

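Tumour necrosis factor fell below the 20 CPM minimum and so outside the counts, and was picked out after its value was seen. Tnf was counted at 4.45 CPM (133 UMIs) in hCD33m, 11.7 CPM (311 UMIs) in hCD33M and 10.2 CPM (200 UMIs) in Control, a log2 ratio of hCD33m over hCD33M of -1.39 with a 95% counting interval of -1.70 to -1.09. Il1b, another inflammatory cytokine at low level, stood at 5.21 and 5.36 CPM. The cold-inducible gene Rbm3, a relative of Cirbp that lies on X, stood at 187 CPM in hCD33m, 251 CPM in hCD33M and 262 CPM in Control, giving a log2 ratio of -0.42.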
